A study of Mus musculus with 6 samples.

Results

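The iron uptake, storage and export genes Trf, Tfrc, Fth1, Ftl1 and Slc40a1 were followed from a suspension of mouse brain cells to the endothelial cells sorted out of it. They were chosen by gene symbol, and all 5 were among the 10989 genes of the deposited table. The exporter gene Slc40a1 and the uptake receptor gene Tfrc were higher in the sorted cells (5.92-fold and 3.32-fold). The carrier gene Trf and the ferritin heavy chain gene Fth1 were lower (7.87-fold and 3.46-fold), and the ferritin light chain gene Ftl1 did not pass the test.

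Iron travels in blood and brain fluid bound to transferrin, the product of Trf. Cells take it up through the transferrin receptor (Tfrc), store what they do not use inside ferritin shells built of heavy (Fth1) and light (Ftl1) subunits, and release it through ferroportin (Slc40a1), the known cellular exporter of non-haem iron. At the blood-brain barrier iron has to cross the endothelial cell, entering on the blood side through the transferrin receptor and leaving on the brain side. In the brain, Trf is known as a gene of oligodendrocytes and choroid plexus, and ferritin is abundant in oligodendrocytes and microglia.

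RNA was sequenced from 6 brain libraries of mice that carried Tie2-cre together with NuTRAP, a reporter that Cre switches on and that puts EGFP on ribosomes and mCherry on nuclei; the titles of all 6 libraries carry the label WT, and no age is given. The 3 Positive libraries come from cells sorted as EGFP positive, CD31 positive and CD11b negative, and the 3 Input libraries are taken here as the suspension loaded into the sorter; replicates 1222, 1223 and 1227 occur once in each fraction. The Tie2 promoter is also known to be active in blood-forming cells, so EGFP alone does not define endothelium, and Input holds endothelial cells too. Every library was made in the same genotype, so the contrast is one of fraction only.

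Total estimated counts ran from 4772866 to 52283556 per library, a 10.95-fold range with both 1223 libraries lowest. The lowest count of any of the 5 iron genes in any library was 708. All 10 tested pan-endothelial markers were higher in Positive (median log2 fold change 2.85), and all 10 markers each of oligodendrocytes, astrocytes and microglia were lower (medians -4.66, -3.53 and -2.95). Perivascular macrophage markers were uneven: their summed level ran from 564 to 628 CPM (a gene's counts relative to the library total, with TMM correction) in Input, and stood at 3446, 1370 and 660 CPM in Positive 1222, 1223 and 1227. By edgeR 7 of these 8 markers were higher, but 3 with the replicate number as a block, 2 by limma-voom and 0 when limma was run on log2 values as deposited. With DESeq2's Wald test it was 7, and without TMM correction 6. With libraries left out it was 0 without Input 1227, both 1222 or both 1223 libraries, and 1 without Input 1223. It was 2 without Positive 1222, 3 without Input 1222, 7 without Positive 1223 or both 1227 libraries, and 8 without Positive 1227. Pericyte markers, of the mural cells that wrap capillaries, were higher too, 7 of 8 (median log2 fold change 1.18), with 5 to 7 over the settings that leave libraries out. The macrophage marker Ms4a7 and the pericyte marker Higd1b reached the minimum count for the deposited table in Positive alone, which favours a rise. The oligodendrocyte marker Opalin and the astrocyte marker Gfap reached it in Input alone, which favours a fall. The marker counts given here include these genes and are to be read with that.

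Of the 5 genes 4 share a regulatory sequence that the choice by name did not use. Iron regulatory proteins bind a short stem loop in messenger RNA, the iron-responsive element, when iron is scarce. In a 5′ untranslated region the bound protein blocks translation, and in the 3′ untranslated region of Tfrc it protects the message. The elements are shown because they link receptor, store and exporter at the level of the transcript. Each line gives a 29-base stretch, 5′ to 3′ on the strand of the message, with the 6-base loop in capitals.
Fth1, 5′ region: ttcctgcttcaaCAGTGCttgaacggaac
Ftl1, 5′ region: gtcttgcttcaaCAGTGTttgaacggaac
Slc40a1, 5′ region: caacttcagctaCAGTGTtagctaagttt
Tfrc, 3′ region, the first: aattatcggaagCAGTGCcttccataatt
Tfrc, 3′ region, the second: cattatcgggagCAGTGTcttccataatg
Tfrc, 3′ region, the third: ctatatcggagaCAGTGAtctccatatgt
Tfrc, 3′ region, the last: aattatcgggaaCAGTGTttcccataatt

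These sequences come from GENCODE vM21 transcripts on GRCm38, the assembly also called mm10. On mm10 they lie at chr19:9982732-9982760 (Fth1, plus strand), chr7:45459779-45459807 (Ftl1, minus strand) and chr1:45925465-45925493 (Slc40a1, minus strand). The Tfrc stretches lie, in the order shown, at chr16:32631219-32631247, chr16:32631598-32631626, chr16:32631663-32631691 and chr16:32631710-32631738 on the plus strand. All are exonic, within the untranslated regions. The search used the letters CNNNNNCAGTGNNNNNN, with a last loop base other than G and all 5 stem positions paired (G with T allowed), over the untranslated regions of 1 transcript per gene.

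Of 10712 tested genes with such a transcript, 0.663% held a match on the message strand and 0.429% on the reverse strand. Tfrc, with 4, was the 1 gene that held more than one, and no match was found in Trf. The search can miss elements that depart from its fixed letters or full pairing, or that lie in other transcripts. These counts are therefore matches found, and a gene without a match may still hold an element. The Fth1 and Ftl1 stretches were identical at 26 of 29 bases, and those of Fth1 and Slc40a1 at 13 of 29. A match to these letters is a description of sequence and was not tied to binding here.

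The other 67 genes with a match did not share one direction: 17 were higher and 23 lower in Positive (25.4% and 34.3%), with a median log2 fold change of -0.10. They include 2 other genes of the iron lists used below, among them Alas2, with a match in its 5′ region. Over all 10989 genes tested, 26.1% were higher and 29.4% lower by edgeR's quasi-likelihood test at an adjusted p below 0.05, with a median of 0.03. Among the 4 members with elements, Tfrc and Slc40a1 were higher, Fth1 was lower and Ftl1 did not pass.

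**Figure D1:**
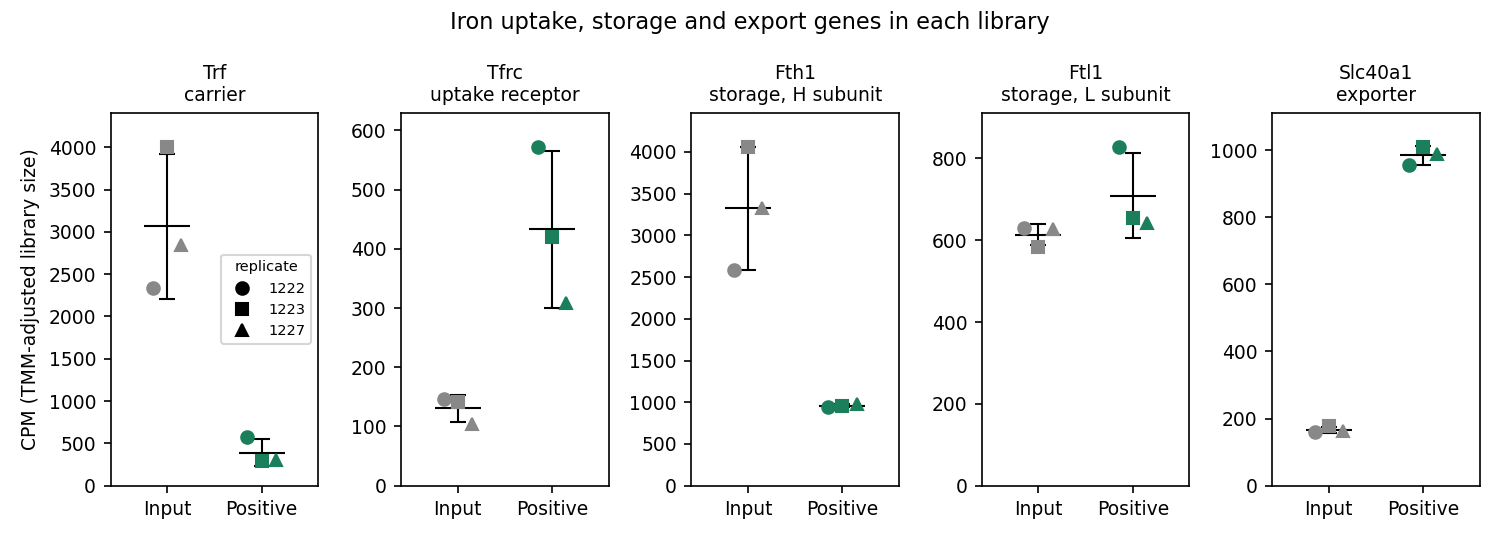
Level of each iron gene in each library, in CPM on linear axes that start at 0 and differ between panels; symbols mark the replicate number, horizontal lines the mean and bars the SD (n = 3). Trf and Fth1 fall, Tfrc and Slc40a1 rise, and Ftl1 stands at 584 to 630 CPM in Input and 643 to 828 CPM in Positive.

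Trf, the carrier (Entrez 22041, chromosome 9, 103208876 to 103230286, minus strand), stood at 2340, 4004 and 2847 CPM in Input 1222, 1223 and 1227. It stood at 573, 288 and 304 CPM in Positive libraries of the same numbers. All 3 Positive libraries lay below all 3 Input libraries, as in 32.6% of all genes, and Positive 1222 was the highest of the sorted libraries. The means were 3064 ± 853 CPM in Input and 389 ± 160 CPM in Positive (SD, n = 3). The fall was -2.98 ± 0.32 on the log2 scale (SE; edgeR's quasi-likelihood test, adjusted p = 8.37e-05), and 8.06% of all genes fell further. The table pairs Trf with a second Ensembl identifier, which GENCODE lists as a read-through gene model over the same locus, and counts of the gene and the read-through cannot be told apart.

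The fall of Trf was smaller than that of oligodendrocyte markers in each replicate number. Positive held 24.5%, 7.20% and 10.7% of the Input level of Trf in 1222, 1223 and 1227. The summed level of the 10 oligodendrocyte markers was 4.57%, 2.26% and 6.82% of Input, and the single marker that kept most stood at 6.35%, 3.66% and 7.80%. The 8 choroid plexus markers together kept 13.1%, 14.7% and 12.9%, and single ones kept 6.02% to 15.3%, 7.21% to 24.4% and 4.82% to 14.7%. Enpp2 and Ttr were the highest of them, with Input means of 4179 and 3465 CPM. Folr1, Kcnj13 and Otx2 of this list reached the deposited minimum in Input alone. In Input, Trf was highest in 1223, as was the summed oligodendrocyte level (19434, 28877 and 20632 CPM in 1222, 1223 and 1227). No oligodendrocyte or choroid plexus marker was at 0 in a Positive library: the sums there were 652 to 1407 CPM and 828 to 1641 CPM. Their part in the Trf values was not tested. In such bulk libraries, fewer cells of a type and less RNA per cell cannot be told apart.

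Tfrc, the receptor that brings transferrin-bound iron into the cell (Entrez 22042, chromosome 16, 32608896 to 32632794, plus strand), stood at 146, 141 and 105 CPM in Input 1222, 1223 and 1227. In Positive it stood at 572, 419 and 308 CPM. The fractions did not overlap, with Positive above Input as in 31.8% of all genes, and 1222 was highest and 1227 lowest in both. The mean went up from 131 ± 22.5 to 433 ± 132 CPM, by log2 1.73 ± 0.24 (adjusted p = 0.000338 by edgeR), and 6.07% of all genes rose further. Within a replicate number the log2 difference was 1.97, 1.56 and 1.55.

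The spread of Tfrc among the sorted libraries ran in the same order as the perivascular macrophage sum (3446, 1370 and 660 CPM in Positive 1222, 1223 and 1227), while the pan-endothelial sum was 19135, 20505 and 19101 CPM. All 8 listed macrophage markers were tested, and 0 of them were at 0 in a Positive library. Without both 1222 libraries the log2 fold change of Tfrc was 1.55 (adjusted p = 0.00131 by edgeR). In the remaining pairs, 1223 and 1227, the macrophage sum was also above Input, at 228% and 117%. Erythroid markers, of a lineage also known for high Tfrc, were lower: all 4 tested fell, and their sum went from 4451 to 10005 CPM in Input to 1481 to 2512 CPM in Positive. The pericyte sum rose with Tfrc, from 642 to 771 CPM in Input to 1215 to 1906 CPM in Positive, with 1227 highest and 1223 lowest among the sorted libraries. The part of macrophage, erythroid and pericyte RNA in the Tfrc values was not tested.

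Fth1, the ferritin subunit with ferroxidase activity (Entrez 14319, chromosome 19, 9982646 to 9985111, plus strand), stood at 2583, 4060 and 3330 CPM in Input 1222, 1223 and 1227. In Positive it was nearly level, at 946, 951 and 982 CPM. The fractions did not overlap, with Positive below Input as in 32.6% of all genes, and the spread lay almost wholly in Input. The mean went down from 3324 ± 739 to 960 ± 19.7 CPM, with log2 -1.79 ± 0.18 (adjusted p = 5.9e-05 by edgeR), and 15.2% of all genes fell further. Positive held 36.6%, 23.4% and 29.5% of the Input level in 1222, 1223 and 1227, above the summed level of oligodendrocyte markers in each number. The order of the Input libraries was that of Trf, with 1223 highest and 1222 lowest, and that of the oligodendrocyte sum. Of the microglial sum, Positive held 21.8%, 23.7% and 12.3%. Fth1 kept more than that sum in 1222 and 1227 but not in 1223. Single microglial markers kept 6.30% to 49.4% in 1222, 12.5% to 38.1% in 1223 and 7.99% to 16.3% in 1227. C1qa and Csf1r fell least of them (log2 -1.57 and -1.82), beside a median of -2.95 for the list. Among the Positive libraries both ran in the order of the perivascular macrophage sum. Csf1r stood at 1076, 516 and 384 CPM in Positive 1222, 1223 and 1227, and C1qa at 443, 253 and 161 CPM. The microglial sum includes both genes, and its comparison with Fth1 was not made without them. In Input the microglial sum ran opposite to Fth1, at 11155, 6008 and 10687 CPM in 1222, 1223 and 1227. The part of oligodendrocyte, microglial and macrophage RNA in the Fth1 values was not tested.

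Ftl1, the subunit that promotes formation of the iron core (Entrez 14325, chromosome 7, 45457944 to 45459886, minus strand), stood at 630, 584 and 627 CPM in Input 1222, 1223 and 1227. In Positive it stood at 828, 654 and 643 CPM. All 3 Positive libraries lay above all 3 Input libraries, 1227 only just, and 31.8% of all genes had Positive wholly above Input. The means were 614 ± 25.9 and 708 ± 104 CPM, with a log2 fold change of 0.21 ± 0.14 (adjusted p = 0.251 by edgeR) and a 95% interval of -0.12 to 0.53. An increase of up to that size, or a small decrease, is within the measured error. Without Positive 1222 the log2 fold change was 0.08. Both ferritin genes have processed pseudogenes, which were not analysed here and between which the counting could have split reads.

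The ferritin genes moved apart in each replicate number. The log2 ratio of Fth1 to Ftl1 was lower in Positive by a mean of 1.97 (log2 ratio difference -1.97), with differences of -1.84, -2.26 and -1.80 within 1222, 1223 and 1227 (SD 0.25). An exact two-sided permutation test of the 6 libraries gave p = 0.1, the smallest that 3 against 3 allows (adjusted p = 0.1 over the 3 ratios tested). Flipping signs within the pairs gave an exact p = 0.25 for this ratio and for the other two given further on, the smallest that 3 pairs allow.

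Slc40a1, the exporter (Entrez 53945, chromosome 1, 45908070 to 45925594, minus strand), had the smallest SE of the 5 genes. It stood at 160, 177 and 162 CPM in Input 1222, 1223 and 1227 and at 954, 1010 and 989 CPM in Positive. The mean rose from 166 ± 9.0 to 985 ± 28.0 CPM, by log2 2.57 ± 0.13 (adjusted p = 2.75e-06 by edgeR), and 1.82% of all genes rose further. Positive held 595%, 572% and 612% of the Input level, beside 769%, 628% and 775% for the summed pan-endothelial markers, whose single log2 fold changes ran from 2.68 to 3.20. Among the Positive libraries the macrophage sum varied from 660 to 3446 CPM, and Slc40a1 from 954 to 1010 CPM. Relative to Input the macrophage sum stood at 549%, 228% and 117% in 1222, 1223 and 1227. The pericyte sum also rose in each number, to 239%, 158% and 251% of Input. The part of macrophage and pericyte RNA in the Slc40a1 values was not tested.

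Tfrc rose less than Slc40a1 in each replicate number. The log2 ratio of Tfrc to Slc40a1 was lower in Positive by a mean difference of -0.87, with -0.60, -0.95 and -1.06 within 1222, 1223 and 1227 (exact two-sided permutation p = 0.1, the smallest possible). The ratio of Tfrc to Fth1 was higher in Positive by 3.47 on the log2 scale, with 3.42, 3.66 and 3.32 within the numbers and the same exact permutation p = 0.1. All 3 pairs kept their direction in every replicate number.

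**Figure D2:**
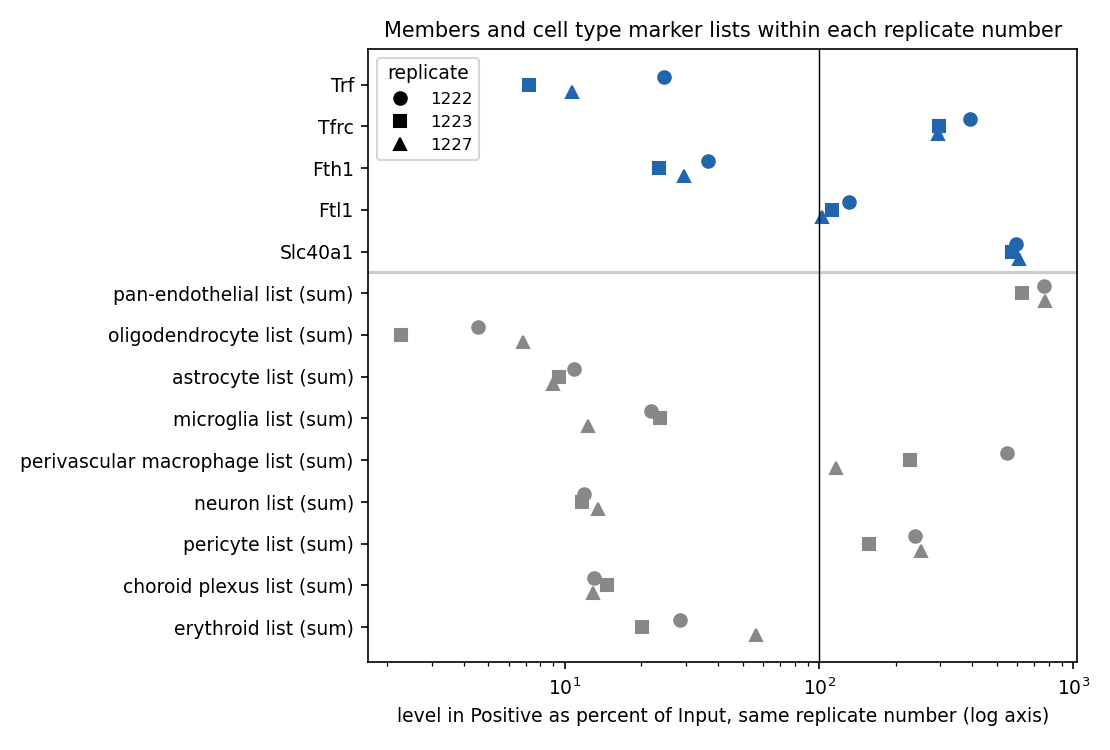
Level in Positive as a percent of Input within each replicate number, on a log axis, for the 5 iron genes (blue) and for the summed levels of 9 cell type marker lists (grey). Slc40a1 lies at 572 to 612%, under the pan-endothelial sum at 628 to 775%, and Trf at 7.20 to 24.5%, above the oligodendrocyte sum at 2.26 to 6.82%.

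Of the 5 genes 2 were higher and 2 lower, beside 26.1% and 29.4% of all genes, and with 5 genes these shares say little about the set as a whole. All 5 had passed the deposited minimum count in both fractions, so none had been kept through 1 fraction alone. The direction of the 4 changes was the same in all 3 replicate numbers.

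Levels of different genes were compared per length, as CPM per kb of 1 GENCODE transcript per gene (the sources used here do not name the transcripts the authors counted). In Input the order was Fth1 (3578 ± 795 CPM per kb), Trf (1192 ± 332), Ftl1 (634 ± 26.8), Slc40a1 (49.3 ± 2.67) and Tfrc (26.7 ± 4.61), and no 2 neighbours overlapped. In Positive it was Fth1 (1033 ± 21.2 CPM per kb), Ftl1 (732 ± 107), Slc40a1 (292 ± 8.30), Trf (151 ± 62.2) and Tfrc (88.6 ± 27.1). Trf and Tfrc overlapped there, from 112 to 223 and from 63.1 to 117 CPM per kb, although Trf was above Tfrc in each library. Trf dropped below Ftl1 and Slc40a1 in all 3 numbers, and the ferritin genes held the first and second places in the sorted cells.

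**Figure D3:**
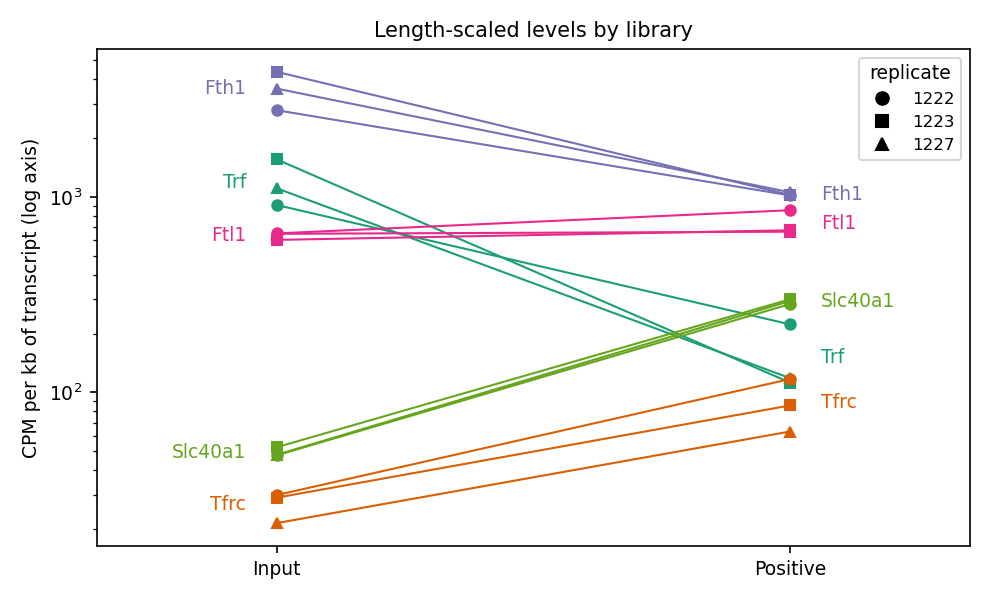
Length-scaled level of the 5 iron genes in CPM per kb on a log axis; each line joins the Input and Positive libraries of 1 replicate number. Fth1 is first in all 6 libraries, Trf crosses below Ftl1 and Slc40a1, and Tfrc stays lowest while rising from 21.4 to 29.8 CPM per kb in Input to 63.1 to 117 CPM per kb in Positive.

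Other genes of iron and haem handling were taken from 7 lists of 57 genes in all, of which 40 were tested. Of these, 8 were higher and 12 lower in Positive and 20 did not pass (20% and 30%, against 26.1% and 29.4% of all genes), with a median log2 fold change of -0.01. Without TMM scaling the split was 6 higher and 14 lower, beside 2165 higher and 3666 lower over all genes. Slc39a14, Steap2 and Slc46a1 reached the deposited minimum in Input alone, a way into the table that favours a fall, and their values are to be read with that. The lists as a whole therefore lay close to the background, and the values below describe single genes. The adjusted p values are from edgeR's quasi-likelihood test throughout.

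In uptake and reduction, 2 of 7 tested genes were higher and 2 lower. Slc39a8, a metal importer of the ZIP family that carries iron, zinc and manganese, stood at 61.2, 69.9 and 60.8 CPM in Input and 471, 552 and 497 CPM in Positive (log2 2.99 ± 0.14, adjusted p = 2.7e-06). Its close relative Slc39a14, kept through Input alone, went the other way, from 18.7 ± 2.09 to 7.03 ± 1.07 CPM (log2 -1.40 ± 0.23, adjusted p = 0.00103). The ferrireductases that passed were split too, and another on this list did not pass. Steap3, which reduces iron in endosomes so that it can leave them after transferrin uptake, rose by log2 0.79 ± 0.18 (adjusted p = 0.00586), and Steap2, also kept through Input alone, fell by 3.01 on the log2 scale (adjusted p = 2.14e-05). Slc11a2, the endosomal iron transporter known as DMT1, had 50.3 ± 10.7 CPM in Input and 41.3 ± 4.22 CPM in Positive and did not pass (log2 -0.28, adjusted p = 0.22). Mcoln1, a lysosomal cation channel, did not pass (log2 0.38, adjusted p = 0.117), but did by limma-voom (log2 0.49), without Positive 1223 (0.54) and without both 1223 libraries (0.61).

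Among partners of ferritin, Ncoa4, the receptor that sends ferritin to the lysosome, stood at 164, 175 and 169 CPM in Input and 295, 236 and 192 CPM in Positive 1222, 1223 and 1227 (log2 0.51 ± 0.17, adjusted p = 0.0282). The iron chaperone Pcbp2 had log2 0.49 ± 0.15 (adjusted p = 0.0212), and Pcbp1, another such chaperone, did not pass (log2 0.10, adjusted p = 0.463). Both calls depended on single libraries. Ncoa4 did not pass without Input 1222 (log2 0.49), Input 1227 (0.51), Positive 1222 (0.33), Positive 1223 (0.53), both 1222 libraries (0.30) or both 1223 libraries (0.55). Pcbp2 did not pass without Input 1222 (0.40), Input 1227 (0.50), Positive 1223 (0.42), Positive 1227 (0.47), both 1222 libraries (0.48) or both 1227 libraries (0.47). Without TMM scaling neither passed (0.35 for Ncoa4 and 0.34 for Pcbp2), nor with a count of at least 50 in every library (0.37 and 0.35).

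Beside the exporter, ferroportin works with a ferroxidase that oxidises the released iron. Of the 2 such enzymes tested, Cp (ceruloplasmin) stood at 87.1, 90.5 and 87.0 CPM in Input and 439, 352 and 361 CPM in Positive. It rose by log2 2.12 ± 0.13 (adjusted p = 5.14e-06), with no overlap. Heph (hephaestin) had 32.0 ± 8.54 and 24.8 ± 5.50 CPM and did not pass (log2 -0.37, adjusted p = 0.226). App, the amyloid precursor gene, listed for its reported link to ferroportin, went from 2141 ± 309 to 3950 ± 145 CPM (log2 0.88 ± 0.15, adjusted p = 0.00119).

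Of 3 genes that read iron status inside the cell, 1 fell. Aco1 and Ireb2, which encode the iron regulatory proteins that bind the elements shown above, had log2 -0.13 ± 0.13 and 0.01 ± 0.15 (adjusted p = 0.429 and 0.981). Fbxl5, whose product marks Ireb2 protein for degradation when iron is plentiful, went from 108 ± 13.7 to 69.9 ± 20.4 CPM (log2 -0.64 ± 0.21, adjusted p = 0.0306). That call was lost without Input 1223 (log2 -0.53), Positive 1222 (-0.49), Positive 1227 (-0.57), both 1222 libraries (-0.53) or both 1227 libraries (-0.63). Of 3 genes of systemic control tested, Bmp6, the signal by which liver endothelium induces hepcidin, fell from 43.3 ± 10.8 to 14.1 ± 1.61 CPM (log2 -1.61 ± 0.22). Neo1, a co-receptor of that pathway, fell too (log2 -1.28, adjusted p = 4.69e-05), and Hfe did not pass (log2 0.44, adjusted p = 0.0738) except without Positive 1227 (0.58).

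In haem handling, 2 of 12 tested genes rose and 5 fell. Alas1, the first enzyme of haem synthesis outside red cells, rose from 99.8 ± 14.1 to 397 ± 66.2 CPM (log2 1.99 ± 0.17, adjusted p = 2.14e-05). Its erythroid counterpart Alas2 fell from 307 ± 11.7 to 63.6 ± 26.6 CPM (log2 -2.26 ± 0.27). The haemoglobin-rich erythroid list fell with it, as given above, and Alas2 is one of its 4 tested markers. Mfsd7c, the table's symbol for Flvcr2, a membrane transporter of brain endothelium linked to haem and choline, stood at 27.3, 28.8 and 27.5 CPM in Input and 220, 205 and 213 CPM in Positive (log2 2.93 ± 0.12, adjusted p = 2.7e-06). Hmox1, the inducible enzyme that frees iron from haem, stood at 44.0, 22.8 and 17.1 CPM in Positive 1222, 1223 and 1227 and did not pass (log2 0.52 ± 0.34, adjusted p = 0.228). Its value was log2 0.01 without Positive 1222, 0.11 without both 1222 libraries, 0.79 without Positive 1227 and 0.83 without both 1227 libraries, and it passed in none of these. The constitutive Hmox2 fell (log2 -0.89 ± 0.15). The transporter genes Slc46a1 and Slc48a1, both listed under haem handling, fell (log2 -3.14 ± 0.38 and -1.38 ± 0.18), the former kept through Input alone. Fech, the enzyme that inserts the iron of haem, fell too (-1.07 ± 0.19).

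Of 9 tested genes of mitochondrial iron and iron-sulphur clusters, 7 did not pass and 2 fell, among them Cisd1, an outer membrane iron-sulphur protein (log2 -1.24 ± 0.21). The scaffold gene Iscu and the membrane protein gene Cisd2 did not pass (log2 0.31 and 0.10).

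**Figure D4:**
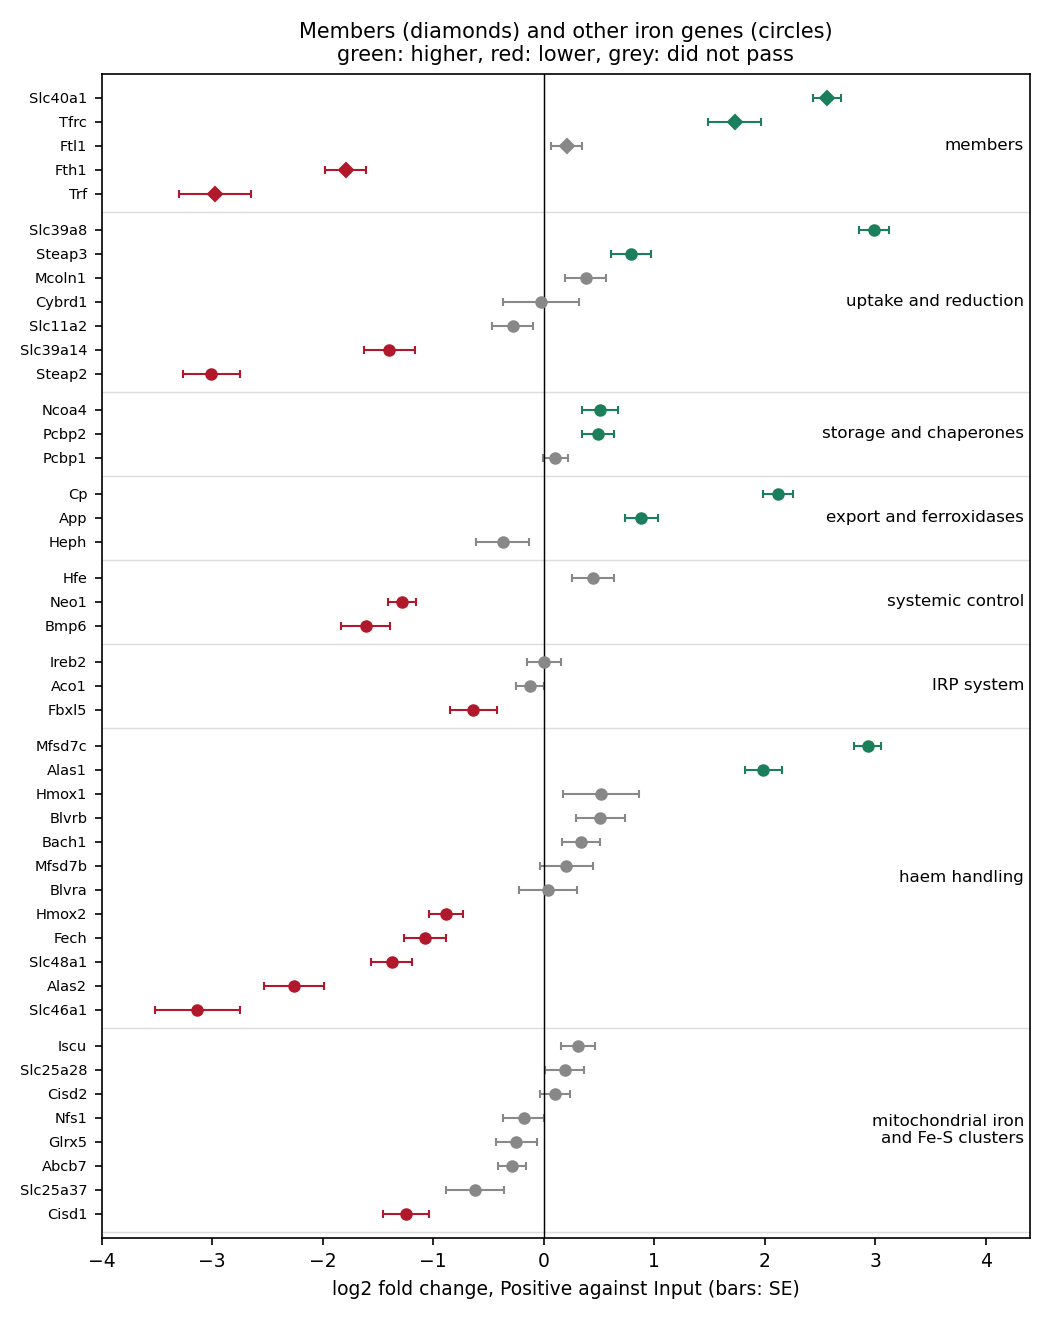
Log2 fold change of Positive against Input with its SE for the 5 iron genes (diamonds) and other tested iron genes (circles), grouped by role. Green marks genes higher and red genes lower in Positive at an adjusted p below 0.05; Slc39a8, Mfsd7c, Slc40a1 and Cp lie furthest to the right and Slc46a1, Steap2 and Trf furthest to the left.

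For each iron gene, the 3 genes with the most similar pattern over the 6 libraries were found by the root mean square (RMS) difference of log2 CPM, each gene centred on its own mean. Slc40a1 was closest to N4bp3 (RMS difference 0.027), Rab11fip1 (0.049) and Slc9a3r2 (0.059). The genes near Fth1 included Slc35a5 (0.084) and Adi1 (0.085), and Ftl1 was closest to Dbnl, Tesk1 and Rfwd2 (0.061, 0.061 and 0.062). Tfrc was closest to Itga4 (0.119), Lrp8 (0.132) and Ifit2 (0.160). Trf had the most distant neighbours, Pak1 (0.132), Etv1 (0.215) and Scamp5 (0.218). With 2 fractions, such a likeness mostly reflects a similar fold change.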

How the data were processed

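The authors deposited 1 table of 10989 genes with estimated counts (not whole numbers) and log2 normalised values per library. A gene is in it, per the file headers, if every library of Input or of Positive reached a raw value of 50. Per the submitters' processing notes the build was mm10 and the tools include DESeq; the sources used here name no aligner, counter or strand setting. The log2 values the authors deposited served only in an alternative. After rounding, counts were scaled by TMM and tested in edgeR 4.0.16 under R 4.3.3, with filterByExpr at a minimum count of 10 (0 genes removed), quasi-likelihood test of Positive against Input, prior count 2, Benjamini-Hochberg adjustment over all genes. Alternatives used limma 3.58.1 and DESeq2 1.42.0. Symbols were matched by name, and Flvcr1, Flvcr2 and the erythroid marker Hbb-bs by Entrez identifier.

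Named genes are the 5 iron genes, up to 3 of highest level per iron list plus those that passed, and the 3 nearest per iron gene; Slc11a2 and Hmox1 were named after their values were seen, and some genes that the rule selects are left out of the text and plots. Members and lists were chosen with earlier results of these data known. The code was tested on simulated data.

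Same-numbered libraries deviated together from their fraction means (correlations 0.471, 0.245 and 0.302 for 1222, 1223 and 1227; highest with another number -0.055, 0.031 and 0.031), and the numbers therefore count as pairs, which the main fit does not use. The series text calls the replicates biological, but no label ties a number to an animal: p-values cover only the spread among these libraries.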

Additional observations from a re-analysis of the deposited data

How the results depend on the processing

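The 5 iron genes kept their direction and their side of the threshold in all 17 alternatives each: Slc40a1 from log2 2.41 to 2.64, Tfrc from 1.47 to 1.93, Fth1 from -1.94 to -1.62, Trf from -3.54 to -2.57 and Ftl1 from 0.05 to 0.29, which never passed (adjusted p from 0.148 to 0.79). Of the 17, the fit without a filter on low counts is the main fit again, since the filter removed 0 genes, and adds no evidence. With the replicate number as a block, Slc40a1 had log2 2.57, Tfrc 1.70, Fth1 -1.77, Trf -3.02 and Ftl1 0.20, the listed iron genes gave 8 higher and 12 lower, and no call on an iron gene named in the text changed. Without scaling beyond library size the median of all genes moved by -0.156, and the changes are to be read relative to it. Over the settings that leave libraries out, the counts over all genes ran from 1741 to 2755 higher (1741 without both 1227 libraries) and from 2393 to 3207 lower, and with a count of at least 50 in every library, which tests 8530 genes, 2066 were lower. Among listed genes near no change, Ireb2 turned to log2 -0.15 without scaling, -0.0014 with DESeq2 size factors, -0.0026 by DESeq2, -0.016 by limma-voom and -0.13 with the count minimum, and ran from -0.087 to 0.14 with libraries left out; Cisd2 and Pcbp1 turned to -0.049 each without scaling and -0.036 each with the minimum. Their cause was not tested. The ratio of Tfrc to Slc40a1 ran from -1.11 to -0.64, that of Fth1 to Ftl1 from -2.16 to -1.77 and that of Tfrc to Fth1 from 3.23 to 3.72 with single libraries left out. Both 1223 libraries have the lowest totals.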
